A study of Mus musculus with 2 samples.

Results

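The genes described here encode the nuclear subunits of the 4 respiratory complexes and of ATP synthase. They were found by gene name, as the Nduf, Sdh, Uqcr, Cyc1, Cox4 to Cox8 and Atp5 genes among the 32947 gene names of a mouse expression array, which gave 85 names read by 131 probes. Of these, 82 are subunit genes or close paralogues of subunits: 35 belong to complex I, 4 to complex II, 9 to complex III, 19 to complex IV and 15 to ATP synthase, complex V. The other 3 names matched the pattern only. Atp5c1-ps is a pseudogene of the F1 gamma subunit, Atp5s is now called Dmac2l and Atp5sl is now called Dmac2. The rule uses names and no measured value, though the set was proposed with earlier results of these data known. Subunits encoded by mitochondrial DNA carry other names and were not analysed here.

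The comparison is between 2 cultures, KO-Linc1548 46C cells and WT 46C cells. Both are mouse embryonic stem cells at day 5 of differentiation towards the neural fate as floating aggregates in medium with serum replacement. 46C cells carry a GFP reporter at the Sox1 locus, and Linc1548 is a long intergenic non-coding RNA. The title of the series places this RNA at the step from epiblast stem cells to neural progenitors. The labels describe neither the deleted allele nor the number of clones, and Linc1548 itself was not analysed here, so the knockout label was not checked on its target. Each group has 1 array, so the differences rest on 1 culture a group and carry no p-value. Array, culture and genotype cannot be told apart.

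The respiratory chain is the set of inner-membrane complexes that pass electrons from NADH and succinate to oxygen while pumping protons out of the mitochondrial matrix. Complex I oxidises NADH and complex II oxidises succinate. Both hand electrons to coenzyme Q, complex III passes them to cytochrome c, and complex IV, cytochrome c oxidase, reduces oxygen. ATP synthase lets the protons flow back and makes ATP. Most subunits are made in nearly all cells, but several small subunits of complex IV exist as a broadly expressed form and as a form restricted to muscle, testis or lung. Naive mouse embryonic stem cells use both respiration and glycolysis, and epiblast stem cells are known to rely more heavily on glycolysis.

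The 2 cultures differed widely in the markers of cell state. All 10 measured neural progenitor markers were at least 2-fold lower in the KO-Linc1548 culture, with summed scaled signals of 12388 in KO-Linc1548 and 128745 in WT. Of 12 naive pluripotency markers 11 were at least 2-fold higher, with sums of 105299 in KO-Linc1548 and 11439 in WT. Of 10 neuron markers 8 were at least 2-fold lower. The arrays measure RNA from whole cultures, in which fewer cells of a type and less RNA per cell cannot be told apart. At the level of single spots, the pooled SD of log2 signal was 0.068 on the KO-Linc1548 array and 0.065 on the WT array, which describes error within an array and not between cultures. Over all genes, 11.5% of 18671 were at least 2-fold higher in KO-Linc1548 and 8.81% were at least 2-fold lower, a split that became 7.44% and 16.0% when the arrays were centred on spike-in probes.

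The subunit genes as a body stood close together, while a few tissue-restricted isoforms stood apart. Of the 85 genes, 80 were measured on both arrays. Of these, 3 were at least 2-fold higher in KO-Linc1548, namely Ndufa4l2, Cox7a1 and Cox6b2, none was at least 2-fold lower and 77 lay within 2-fold. The background for these counts is the 11.5% and 8.81% of all genes. All 3 are isoforms or paralogues with restricted expression. The 73 measured subunit genes other than the restricted isoforms had log2 differences between -0.26 and 0.81, with a median of 0.30. Their differences had an SD of 0.215 and an interquartile range of 0.247. Over all 18671 genes the SD was 0.980 and the interquartile range 0.847. The 73 leave out the restricted isoforms, and so all 3 members past 2-fold. No such removal was made among all genes, so the SDs are not like for like. With the isoforms kept, the 80 members had 25th and 75th percentiles of 0.17 and 0.45, against -0.34 and 0.51 over all genes. All genes were not matched to the subunits on signal, so the part of signal level in the narrower spread was not tested.

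**Figure D1:**
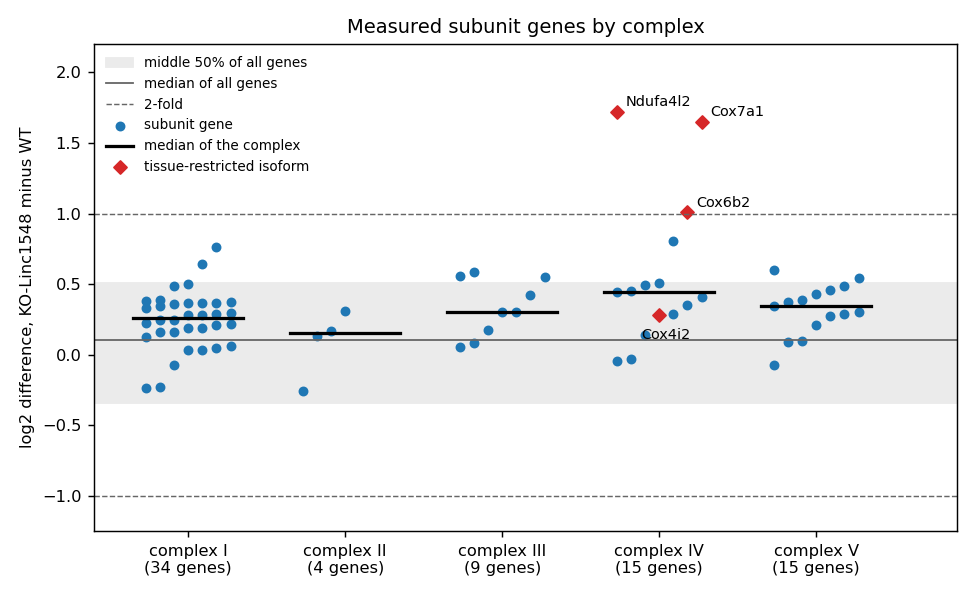
Log2 difference in signal, KO-Linc1548 minus WT, of each measured subunit gene (points), by complex. Diamonds are tissue-restricted isoforms, black bars the median of each complex, the grey line the median of all genes (0.10), the grey band the middle 50% of all genes and the dashed lines 2-fold; 3 diamonds of complex IV lie above the upper dashed line.

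The upward lean of the whole set was small and depended on the scaling. The median over the 80 measured members was 0.31, against 0.10 over all genes, a gap of 0.20 on the log2 scale. With quantile normalization, which gives both arrays the same distribution, or with loess, which removes a trend of the difference with signal, the gap was 0.049. Of the 80 members, 73 were above 0 in the main setting, 47 after quantile normalization, 50 after loess and 24 under spike-in centring. No direction is therefore given for the set. Complex IV had the highest and complex II the lowest median in all 11 settings. The complex IV median includes 4 restricted isoforms, and its rank without them was not computed. By the brightest probe of each gene it was 0.45, against 0.42 for complex III.

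**Figure D2:**
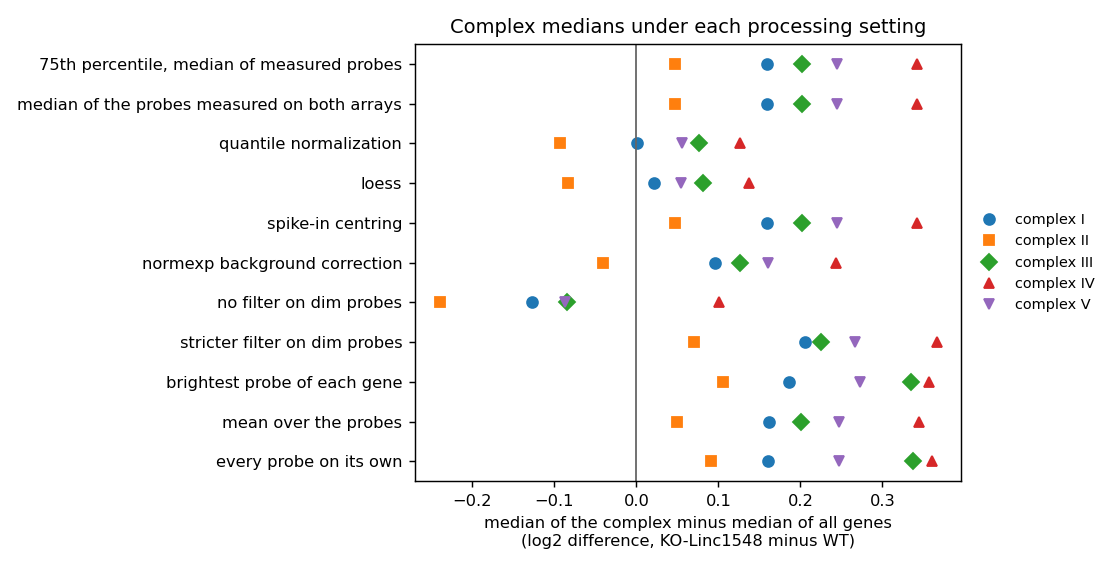
Median log2 difference of each complex minus the median of all genes (x axis) under each processing setting (rows, the main one on top). With quantile and loess normalization all 5 medians move towards 0 or below it, while complex IV stays rightmost and complex II leftmost in every row. The complex IV medians include its restricted isoforms.

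The probes of the 3 isoforms past 2-fold differ in sequence from the probes of their broadly expressed counterparts. Each was compared with the counterpart's probe and not with its whole transcript. Whether RNA of the counterpart adds to a reading was therefore not tested. The first 30 of the 60 bases of each probe are given, as the files list them.
Ndufa4l2: tgtccctggggatcaaacagaagcagccgt
Ndufa4: ccgcacaattttccacttaagcaggaaata
Cox7a1: acaacgtcctgtacagactgaccatgacgc
Cox7a2: ttcccaagaagcagaactaatgtcgtcatc
Cox6b2: ggaactttcccgggcaaaatatgaccttgc
Cox6b1: aggagtcaggatggctgaagacatcaagac
Over the full 60 bases the longest run shared within a pair was 7 bases for Ndufa4l2 and Ndufa4, 4 bases for Cox7a1 and Cox7a2 and 6 bases for Cox6b2 and Cox6b1. On build mm9 the Ndufa4l2 probe lies on the plus strand at chr10:126954149-126954208 and the Cox6b2 probe on the minus strand at chr7:4703488-4703547. The Cox7a1 probe lies on the plus strand at chr7:30970337-30970948, a stretch of 612 bases, so its 60 bases are not contiguous in the genome.

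Ndufa4l2, a paralogue of the complex IV subunit Ndufa4 that is known as a hypoxia-induced gene, had the largest difference of the members measured on both arrays. Its scaled signal was 1784 in KO-Linc1548 and 542 in WT, a log2 difference of 1.72 or 3.29-fold. Ndufa4 itself read 30779 in KO-Linc1548 and 25247 in WT, a log2 difference of 0.29, so the paralogue differed by 1.43 more than its counterpart. A second Ndufa4l2 probe, on an expressed sequence tag, was not well above background on either array, and when it was averaged in without a filter the difference was 1.14.

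Cox7a1 encodes the heart and skeletal muscle form of a small subunit. It read 6553 in KO-Linc1548 and 2087 in WT, a log2 difference of 1.65 or 3.14-fold. Its liver-type counterpart Cox7a2 read 40909 in KO-Linc1548 and 29972 in WT, a difference of 0.45. Cox7a2l, the related supercomplex factor, was nearly level, at 77696 in KO-Linc1548 and 80063 in WT, and was the lowest gene of complex IV at -0.043.

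Cox6b2 encodes the testis form of a small subunit at the contact between the 2 partners of the complex IV dimer. It read 6601 in KO-Linc1548 and 3278 in WT, a log2 difference of 1.01, just past the limit of 2-fold. Cox6b1, the form of other tissues, read 7724 in KO-Linc1548 and 7866 in WT, a difference of -0.026. The gap between both forms was 1.04 and stayed between 0.97 and 1.09 over 10 settings, whereas Cox6b2 alone ranged from 0.62 to 1.01 and was under 2-fold in 5 of them.

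Other testis forms were read on the KO-Linc1548 array only. Cox8c read 190.0 in KO-Linc1548 and 13.0 in WT, where it was not well above background, so it was at least 8.92-fold higher in the main setting. Cox7b2 read 129 in KO-Linc1548 and 10.9 in WT, likewise not well above background, and was at least 6.05-fold higher in that setting. Both bounds would be lower under spike-in centring. Their counterparts Cox8a and Cox7b differed by 0.35 and 0.51. Of the 3 testis forms among the subunits, 1 was thus past 2-fold and 2 were measured in KO-Linc1548 only.

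The muscle and lung forms did not share one pattern. Next to Cox7a1, the heart and muscle forms Cox6a2 and Cox8b were not well above background on either array, with readings of 19.6 and 6.74 in KO-Linc1548 against 9.97 and 4.61 in WT. Cox6a1, the counterpart of Cox6a2, read 179770 in KO-Linc1548 and 131988 in WT, a difference of 0.45. Cox4i2, the lung form of subunit IV, which is also known to respond to low oxygen, read 378 in KO-Linc1548 and 311 in WT, a difference of 0.28 that became -0.11 under spike-in centring. The main form Cox4i1 read 87830 in KO-Linc1548 and 79578 in WT, a difference of 0.14 that became -0.23 with quantile normalization, -0.21 with loess and -0.25 under spike-in centring.

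**Figure D3:**
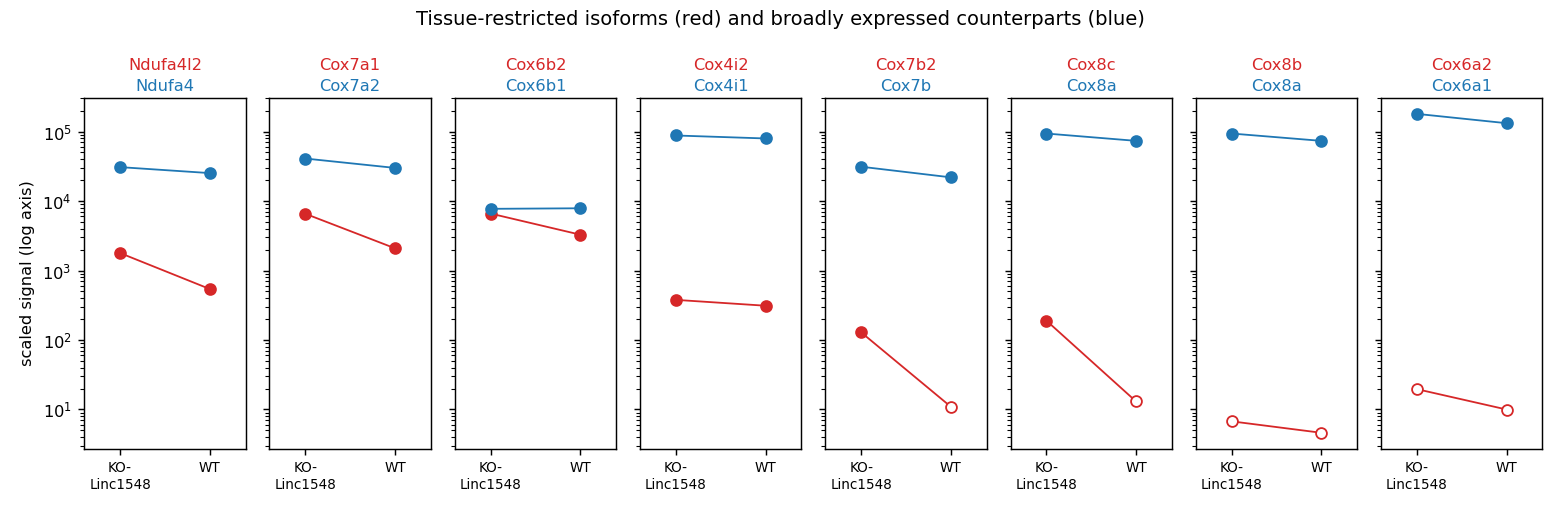
Scaled signal (log axis) on the KO-Linc1548 array and on the WT array for 8 restricted isoforms in red and their broadly expressed counterparts in blue, 1 pair a panel (the brightest probe where there are several; Cox8a appears in 2 panels). Open circles are not well above background; slopes may be compared, but levels of different probes may not. Ndufa4l2, Cox7a1, Cox6b2, Cox7b2 and Cox8c slope down to WT more than their counterparts.

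Markers of germ cells, muscle and low oxygen were measured beside these isoforms. Of 13 genes listed as male germ cell markers, 8 were measured. All 8 were at least 2-fold higher in KO-Linc1548, against 11.5% of all genes, with summed signals of 16491 in KO-Linc1548 and 1583 in WT. The lowest of them, Tnp1 at 1.22, was under 2-fold at 0.83 under spike-in centring and at 0.65 with normexp. Stra8, which marks germ cells entering meiosis, differed by 4.28, and Dazl was well above background in KO-Linc1548 only. The late sperm markers Pgk2 and Spata16 were not well above background on either array, and Acr and Prm1 were well above background in WT only. Of 16 cardiac and skeletal muscle markers, 10 were measured, with sums of 6280 in KO-Linc1548 and 4449 in WT. Of these, 3 were at least 2-fold higher, or 30% against 11.5% of all genes. They were Myh3 at 3.55, Myh6 at 2.79 and Des at 1.20, and Myh7 was lower at -2.74. Des was dim, at 84.9 in KO-Linc1548 and 37.0 in WT. The count was 2 under spike-in centring, with normexp and without the filter on dim probes. Mb and Ryr2 were well above background in KO-Linc1548 only, and Ckm, Myod1, Myog and Tnnt2 were not so on either array. Without the filter on dim probes Myh3 and Myh6 differed by 1.94 and 1.67.

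Of 12 hypoxia targets, 6 were at least 2-fold higher, against 11.5% of all genes, and none was at least 2-fold lower, with sums of 117401 in KO-Linc1548 and 43706 in WT. Pdk1, the kinase that keeps pyruvate out of the citric acid cycle, had the largest difference at 2.59, and Ndrg1 followed at 2.10. Egln1, an oxygen-sensing prolyl hydroxylase, was the lowest at -0.62, and past 2-fold at -1.01 under spike-in centring. Vegfa was next lowest at -0.17, with its 4 probes between -1.17 and 0.69. Its brightest probe read 1139 in KO-Linc1548 and 2556 in WT. By the brightest probe of each gene, 1 target was at least 2-fold lower. The part of germ cell, muscle and hypoxia genes in the isoform differences was not tested.

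In complex I, 34 of 35 genes were measured, all within 2-fold, and 27 of them lay above the median of all genes, against 18 with quantile normalization and 19 with loess. The highest were Ndufs6 at 0.77 and Ndufv3 at 0.64, both accessory subunits of the arm that binds NADH. Ndufs6 read 89927 in KO-Linc1548 and 52908 in WT. Ndufa13, a subunit of the joint between the arms, was the lowest at -0.24. The 2 probes of Ndufa13 did not match: the brighter one was level, at 65950 in KO-Linc1548 and 65562 in WT, and the dimmer one, on another transcript, read 386 in KO-Linc1548 and 539 in WT. Ndufb6 has a single spot, which the software marked as non-uniform on the KO-Linc1548 array (13089 in KO-Linc1548 and 12381 in WT), and it was left out.

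The functional parts of complex I had different medians. All 9 genes of the NADH-binding N module were above the median of all genes, between 0.13 and 0.77 with a median of 0.36. The 5 genes of the quinone-reducing Q module had a median of 0.050, and 2 of them were above the median of all genes. With quantile normalization 6 of 9 genes of the N module and 1 of 5 of the Q module were above it. Without the filter on dim probes these counts were 3 and 1. With normexp, a stricter filter or the brightest probe, 3 of 5 genes of the Q module were above it, at medians of 0.15, 0.13 and 0.13. The N module then had 8, 9 and 9 genes above it, at medians of 0.31, 0.36 and 0.29. The 20 other measured genes of the matrix and membrane arms had a median of 0.26. These groups are small and were drawn after the values were seen, and the gap between them was not tested. The medians depend on how genes were assigned. Ndufa9 and Ndufa6, at 0.37 and 0.34, were counted among the 20 others.

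Complex II had the lowest median, 0.15 over 4 genes. The flavoprotein Sdha was highest at 0.31 and the iron-sulphur subunit Sdhb followed at 0.17. The membrane anchors Sdhd and Sdhc differed by 0.13 and -0.26. Sdhc read 8445 in KO-Linc1548 and 10107 in WT and was the lowest member of the whole set. The 4 probes of Sdha ranged from -0.019 to 0.71, and both ends came from dim probes on alternative transcripts.

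In complex III all 9 genes were measured and above 0, with a median of 0.31, though this count depends on the scaling as above. The small subunits Uqcrq and Uqcr10 were highest, at 0.59 and 0.56. The hinge protein Uqcrh, which helps cytochrome c bind, and the core protein Uqcrc2 were lowest, at 0.058 and 0.080. Uqcrq read 67632 in KO-Linc1548 and 45041 in WT, while Uqcrh read 106313 in KO-Linc1548 and 102144 in WT. The 3 probes of Uqcrb, a small subunit near the coenzyme Q site, spanned the widest range of any member, from -0.26 for a dim probe on another transcript to 0.61.

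Complex IV had the highest median, 0.45 over 15 measured genes, of which 4 are restricted isoforms. Apart from the restricted isoforms, Cox7c, a small membrane subunit, was highest at 0.81, with probe differences of 0.85 and 0.76. Its brighter probe read 51212 in KO-Linc1548 and 28366 in WT. Cox6b1 and Cox7a2l were the lowest, and 13 of the 15 genes were above the median of all genes, against 11 with quantile normalization or loess.

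All 15 genes of ATP synthase were measured and lay within 2-fold, with a median of 0.35. The F1 epsilon and gamma subunits of the central stalk, Atp5e and Atp5c1, were highest at 0.60 and 0.54. Atp5e read 81737 in KO-Linc1548 and 53967 in WT. Another stalk subunit, Atp5d, was the lowest at -0.074, with 15821 in KO-Linc1548 and 16659 in WT, so the 3 genes of 1 structure spanned the whole range of the complex. The head and central stalk had a median of 0.39 over 5 genes, the peripheral stalk 0.33 over 4 and the membrane part 0.25 over 6. These groups too were drawn after the values were seen.

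Subunit c, which forms the rotating ring in the membrane, is made from 3 genes that encode the same mature protein. Atp5g1 differed by 0.46, with all 3 probes between 0.28 and 0.58. Atp5g2 is printed in 10 spots on each array, which allows its spot error to be given: it averaged 155310 ± 6879 (SD, n = 9 spots) in KO-Linc1548, after 1 outlier spot was left out, and 133987 ± 6148 (SD, n = 10 spots) in WT. These spots come from 1 RNA sample each and are not replicates of the cultures; their ranges, 143687 to 165734 in KO-Linc1548 and 125658 to 148325 in WT, overlapped. Atp5g3 differed by 0.091 as the median of probes at 0.45 and -0.26, the second of them dim and on another transcript. The sign of both depended on the scaling: Atp5g2 was at -0.17 with quantile normalization, -0.19 with loess and -0.18 under spike-in centring, and Atp5g3 at -0.093, -0.069 and -0.30.

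Probes of the same gene mostly gave like differences. Among 30 genes with several measured probes the median span was 0.149, no gene spanned more than 1 on the log2 scale, and 3 spanned more than 0.5, namely Uqcrb, Sdha and Atp5g3. A probe on a non-coding transcript of Ndufa7 was well above background in KO-Linc1548 only, at 179 against 18.5 in WT. It was at least 8.41-fold higher in the main setting, while the main Ndufa7 probe differed by 0.28. Extra probes of Ndufb2, Uqcrfs1 and Atp5j were well above background in WT only, at 29.5, 11.0 and 26.4 in KO-Linc1548 and 59.7, 30.9 and 33.6 in WT. The Ndufb11 probe shares 58 bases with the probe of the predicted gene Gm6444, so the 2 cannot be told apart. The 3 genes matched by name only differed by 0.84 (Atp5s), 0.52 (Atp5sl) and 0.39 (Atp5c1-ps).

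Some promoter motifs, which the name rule did not use, were found more often among the broadly expressed subunit genes than among all genes, each in a minority of windows apart from the short hypoxia core, and with no test of the difference. The 250 bases before each start were taken from RefSeq on GRCm38.p6 and searched on both strands. Of 74 subunit genes without the restricted isoforms, 62 matched, with 67 windows, and 4 of the 8 isoforms matched. The NRF1 core CGCANGCG was found in 28.4% of the subunit windows, against 6.76% of all 32851 windows, and the ETS motif CCGGAAG, which GABP binds, in 17.9% against 6.91%. The CRE motif TGACGTCA was found in 5.97% against 1.55% and the E-box CACGTG in 10.4% against 6.02%. The YY1 motif AAGATGGC was found in 1.49% against 1.56%. The hypoxia response core, ACGTG or GCGTG, which overlaps the E-box, was found in 50.7% against 38.6%. The median number of CG dinucleotides was 14, against 6 over all windows. The NRF1, ETS, CRE, E-box and hypoxia core letters all contain CG, and the part of this richness in their shares was not tested.

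Cox6a1, a broadly expressed gene, and the isoforms Cox6b2 and Cox7a1 are shown to set a motif-rich window beside 2 windows of the genes past 2-fold. Capitals mark the NRF1, ETS and YY1 letters, and the windows lie on the minus strand at chr5:115348959-115349208 for Cox6a1, on the minus strand at chr7:4753095-4753344 for Cox6b2 and on the plus strand at chr7:30183921-30184170 for Cox7a1.
Cox6a1: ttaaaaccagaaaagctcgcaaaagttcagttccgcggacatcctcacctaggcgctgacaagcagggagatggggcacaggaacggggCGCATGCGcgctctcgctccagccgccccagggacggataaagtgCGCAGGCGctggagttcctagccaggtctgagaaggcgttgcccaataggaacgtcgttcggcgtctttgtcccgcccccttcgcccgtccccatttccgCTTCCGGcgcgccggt
Cox6b2: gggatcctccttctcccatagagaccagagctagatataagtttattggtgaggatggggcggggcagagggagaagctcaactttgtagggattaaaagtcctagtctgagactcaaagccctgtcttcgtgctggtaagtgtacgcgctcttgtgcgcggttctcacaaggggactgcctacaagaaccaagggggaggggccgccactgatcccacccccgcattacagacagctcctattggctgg
Cox7a1: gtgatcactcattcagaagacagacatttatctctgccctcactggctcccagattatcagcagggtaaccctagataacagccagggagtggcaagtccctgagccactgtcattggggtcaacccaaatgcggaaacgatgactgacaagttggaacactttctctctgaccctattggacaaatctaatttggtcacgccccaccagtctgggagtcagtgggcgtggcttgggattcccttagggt
The Cox6a1 window holds 2 NRF1 matches, 1 ETS match and 26 CG dinucleotides. The windows of Cox6b2 and Cox7a1 hold none of these 3 motifs, with 8 and 4 CG dinucleotides, and the windows of Cox7b2 and Cox8b hold none of them either. The lack of all 3 is not particular to the isoforms, since the windows of the broadly expressed Cox7a2, Cox7b, Cox8a and Ndufa4 hold none of them, and that of Cox6b1 holds the ETS letters alone. The hypoxia response core was found in the windows of Cox7a1, Cox7b2 and Cox8b, 3 of 4 isoform windows, and in those of Cox6b1, Cox7a2 and Cox8a. A match describes letters in the window and not binding, and a window without one says only that the letters are not there.

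Genes that serve the complexes were read from fixed lists. Of 51 assembly factors, all measured, 1 was at least 2-fold higher, 1 was at least 2-fold lower and 49 lay within 2-fold, with a median of 0.20. Both handle complex IV. Coa5, which is needed for its assembly, read 2648 in KO-Linc1548 and 1040 in WT, a difference of 1.35, and Cox20, a chaperone of a core subunit, read 1453 in KO-Linc1548 and 3082 in WT, a difference of -1.08. Ndufaf8, a complex I assembly factor, was next highest at 0.91 and Cox19, a copper-handling protein, next lowest at -0.69. Under spike-in centring Coa5 was under 2-fold, at 0.96, and Cox19 past it, at -1.08.

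Among 20 genes of electron carriers and coenzyme Q synthesis, 3 were at least 2-fold higher, or 15.0% against 11.5% of all genes, none was at least 2-fold lower and the median was 0.26. Cyct, the testis form of cytochrome c, read 1643 in KO-Linc1548 and 86.1 in WT, a difference of 4.25 or 19.1-fold, which became 3.50 with normexp. Cyct is also counted among the male germ cell markers above. Coq8a, an atypical kinase of coenzyme Q synthesis, differed by 1.43 and the methyltransferase Coq3 by 1.13. The related kinase Coq8b was the lowest at -0.90, followed by Coq10a at -0.64, so the 2 kinases of the pathway lay on opposite sides of 0. Under spike-in centring Coq3 was under 2-fold, at 0.74, and Coq8b and Coq10a were past it, at -1.30 and -1.03.

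ATP export and uncoupling held 3 of 11 measured genes at least 2-fold higher, against 11.5% of all genes. They were Ckmt1, the mitochondrial creatine kinase of non-muscle tissues, at 1.69, and the uncoupling-protein family members Ucp2 and Ucp3, at 1.34 and 1.30. Ucp2 read 858 in KO-Linc1548 and 355 in WT on its brighter probe. Under spike-in centring Ucp2 and Ucp3 were under 2-fold, at 0.95 and 0.90. The ADP/ATP carrier of muscle and heart, Slc25a4, was lowest at -0.25 with the channel Vdac3 at -0.25. The testis form of this carrier, Slc25a31, was well above background in KO-Linc1548 only, and the muscle creatine kinase Ckmt2 was not well above background on either array.

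The lists upstream and around the chain were mostly within 2-fold. None of 14 citric acid cycle genes passed 2-fold in either direction; Idh3a, of the NAD-linked isocitrate dehydrogenase, was highest at 0.94 with Suclg2 at 0.78, and Dld and Idh2 were lowest at -0.26 and -0.25. None of 19 measured biogenesis genes passed 2-fold. Gabpa, whose product binds the ETS motif above, was highest at 0.98 with its 3 probes between 0.97 and 1.03, followed by the coactivator Pprc1 at 0.63. The termination-factor relatives Mterf2 and Mterf3 were lowest at -0.78 and -0.29, and Mterf2 was past 2-fold, at -1.17, under spike-in centring. The coactivator Ppargc1a and the nuclear receptor Esrrg were well above background in WT only. Of 78 mitochondrial ribosome genes, 76 lay within 2-fold, with a median of 0.20; Mrps18b and Mrpl15 were highest at 1.03 and 1.01, each under 2-fold in 6 of the other settings, and Mrpl35 and Mrps33 lowest at -0.72 and -0.41, with Mrpl35 past 2-fold at -1.12 under spike-in centring.

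Glycolysis differed more than the subunit genes did. Of 19 genes, 5 were at least 2-fold higher, against 11.5% of all genes, none was at least 2-fold lower, and the median was 0.69, against 0.30 for the subunit genes. The count was 3 with quantile normalization, loess or spike-in centring. Pfkp, a phosphofructokinase, was highest at 2.49 and Ldhb, a lactate dehydrogenase subunit, followed at 2.09, with 100602 in KO-Linc1548 and 27946 in WT on its brighter probe. Aldoc and Eno2, the brain forms of their enzymes, were lowest at 0.19 and 0.24. With 1 array per group the gap between both lists was not tested.

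**Figure D4:**
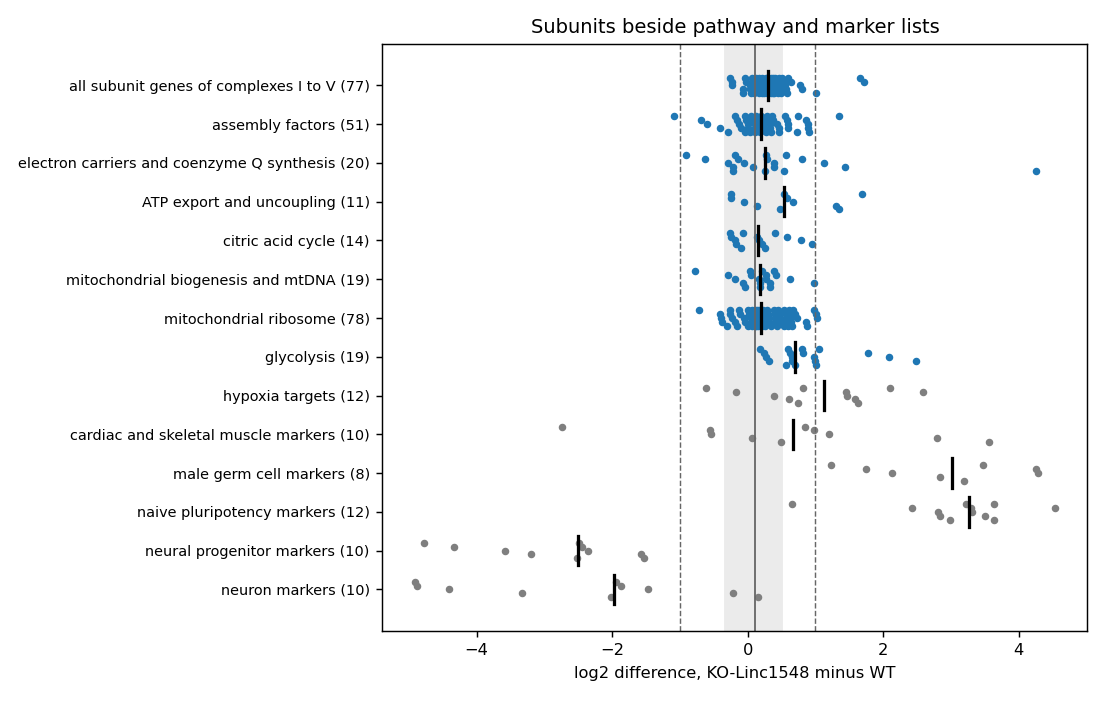
Log2 difference, KO-Linc1548 minus WT, of each measured gene (points) of the subunits, the pathway lists (blue) and the marker lists (grey), with the number of genes in brackets. Black bars are medians, the grey line and band the median and middle 50% of all genes and the dashed lines 2-fold. The subunits lie in a narrow band, apart from 3 restricted isoforms past the upper dashed line. Medians are 0.30 for the subunits, 0.69 for glycolysis and 3.01 for male germ cell markers.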

How the data were processed

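Total RNA from 1 KO-Linc1548 and 1 WT culture of 46C cells at day 5 was measured on 1-colour arrays; groups follow the genotype in the labels. The deposited spot intensity values come from Agilent Feature Extraction 10.7.1.1, per the submitters' processing notes and the file headers, and were background-subtracted and detrended within each array but not normalised between arrays. Outlier spots were left out, the spots of each probe were averaged, and log2 intensity was centred on the 75th percentile of its array. Printed signals were rescaled so that both arrays have an equal 75th percentile. Measured probes had at least 0.5 of their spots well above background on both arrays and were not saturated. Gene values are medians of the differences of measured probes, KO-Linc1548 minus WT, and a fixed limit of 2-fold was used. No test was possible on single arrays, and precision is limited by their number.

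Where only the KO-Linc1548 array measured a gene, the fold is a lower bound under the main centring. It sets the KO-Linc1548 signal against the larger of the WT signal of that probe and the dimmest WT signal called well above background. Members were found by gene name among 32947 names, of which 18671 were measured, with long intergenic RNA loci named by coordinates left out. RefSeq names of GRCm38.p6 replaced old ones for genes outside the members. Members kept their array names, except in the promoter search. The members and all lists were chosen with earlier results of these data known. Named were the isoforms, their counterparts and the subunit c genes, members past 2-fold or measured on 1 array, and the 2 highest and 2 lowest of each complex and pathway list; genes named beyond this were chosen after their values were seen, and 1 gene that the rule takes is not reported here, though counts and medians include it. The groups within complexes I and V were also drawn after the values were seen, and the NRF1 core replaced a longer form of the motif after the counts of that form were seen. Alternatives were other centrings, quantile and loess normalization, normexp background correction with an offset of 50, other filters and other ways to combine probes, with limma 3.58.1 in R 4.3.3 and Python 3.11.15. Only the gene medians and the 2-fold limit were tried on simulated differences, made with spot noise and known changes past the limit. Centring, background correction, filters and naming were not part of this trial, nor was variation between cultures.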

Additional observations from a re-analysis of the deposited data

How the results depend on the processing

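The count of members at least 2-fold higher was 3 and stayed between 2 and 3, except without the filter on dim probes, where it was 6 because Cox7b2, Cox8c and Ndufa7 entered; Cox6b2 left in the 5 settings with another centring, quantile or loess normalization or normexp, and no member was at least 2-fold lower in any setting. The gap between the median of the members and that of all genes was 0.20; it was 0.049 with quantile normalization, 0.049 with loess and -0.079 without the filter. For complex I, at 0.16, these 3 settings gave 0.00090, 0.022 and -0.13. For complex II, at 0.047, they gave -0.092, -0.084 and -0.24. For complex III, at 0.20, they gave 0.076, 0.081 and -0.085, while the brightest probe gave 0.34 and every probe on its own 0.34. For complex IV, at 0.34, they gave 0.13, 0.14 and 0.10, and normexp gave 0.24. For complex V, at 0.24, they gave 0.056, 0.055 and -0.087. Without the filter the median of all genes was 0.39, over 32943 genes that include dim ones. Spike-in centring, on 8 probes, moved the median of all genes to -0.29 and every single-gene value by the same step, which leaves the gaps as they were. The cause of the quantile and loess shifts was not tested. Of 74 named genes, 39 moved by more than spot noise (0.094) with quantile normalization and 36 with loess, and none past 2-fold changed sign in any setting. No paired analysis was possible because each group has 1 array, and for the same reason no array could be left out. Genes not well above background have only a bound.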
